A study of Saccharomyces cerevisiae with 2 samples.

Results

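The proteasome subunits described here are the 33 genes of the 26S proteasome of Saccharomyces cerevisiae among 6666 annotated coding sequences (CDSs). They were chosen by name and not by a measured value: 14 genes of the 20S core (SCL1, PRE1 to PRE10 and PUP1 to PUP3) and 19 of the 19S regulatory particle (RPT1 to RPT6, RPN1 to RPN3, RPN5 to RPN13 and SEM1). All 33 were found in both count tables, and each passed a minimum mean of 10 reads.

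Ribosome footprints, the mRNA fragments that ribosomes cover, had been sequenced in 2 replicate libraries of BY4742, a haploid laboratory strain of mating type alpha, to look for translation outside annotated genes. The cells grew in synthetic medium to mid-exponential phase and received cycloheximide, which blocks translation elongation, at 50 µg/mL. Both libraries belong to this group, so no condition is compared, and the labels do not say whether they came from separate cultures. Replicate 2 held 2733591 reads in CDSs and replicate 1 held 23437283, so 1 read was worth 0.366 and 0.0427 counts per 1000000 CDS reads (CPM). A footprint level combines mRNA abundance and ribosomes per mRNA, which these counts cannot tell apart.

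The proteasome degrades proteins that carry ubiquitin chains. Its 20S core is a barrel of stacked rings. The outer rings are built of alpha subunits, which gate the entry, and the inner rings of beta subunits, of which PRE3, PUP1 and PRE2 carry the caspase-like, trypsin-like and chymotrypsin-like sites. The 19S particle binds at the barrel's end. A ring of Rpt ATPases unfolds the substrate, RPN1 and RPN2 form the scaffold of the base, RPN10 and RPN13 bind ubiquitin, and the lid holds RPN11, the deubiquitinase that removes the chain. Each subunit position is filled by 1 gene product in equal copy number within its particle. In yeast the transcription factor Rpn4, itself a short-lived proteasome substrate, activates these genes through a promoter element called PACE.

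The PACE motif GGTGGCAAA was present upstream of most subunit genes. It was searched on both strands from 250 bases before to 50 bases after the first base of the start codon, on the R64 reference genome (the same assembly as sacCer3). An exact match was found for 27 of 33 subunit genes, or 81.8%, against 72 of 6001 such windows in the genome, or 1.20%. The 20S core had 12 of 14 and the 19S particle 15 of 19. Subunit genes made up 37.5% of all windows with the motif. The motif was chosen as the element already known for these genes, so these shares describe it and are not a test. A further 7 windows belonged to neighbouring genes that face the same site, such as NOP14 beside RPN5 and GCD1 beside RPT4. The sites below are shown because nearly every member has one. They come from R64, read along the motif strand, and the 9 motif bases are in capitals.
PRE6 (chrXV:255218-255246, minus strand): tttcccttccGGTGGCAAAagaatcttcg
PUP3 (chrV:349511-349539, minus strand): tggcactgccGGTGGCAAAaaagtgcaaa
PRE3 (chrX:435035-435063, plus strand): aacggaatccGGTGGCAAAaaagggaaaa
PRE2 (chrXVI:732184-732212, plus strand): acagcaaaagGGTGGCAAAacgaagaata
RPT1 (chrXI:174048-174076, minus strand): ttagttttcgGGTGGCAAAattcggtaat
RPT4 (chrXV:813802-813830, plus strand): ctttcccttcGGTGGCAAAttccactatt
RPT6 (chrVII:411352-411380, minus strand): atgcgagcgaGGTGGCAAAagttgtaata
RPN2 (chrIX:220801-220829, minus strand): atttattttcGGTGGCAAAactggataca
RPN11 (chrVI:153259-153287, plus strand): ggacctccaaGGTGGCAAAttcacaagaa

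Each of the 27 genes had a single exact site, on the strand of the gene in 19 and on the opposite strand in 8. The sites ended 75 to 174 bases before the start codon, with a median of 111. RPT6 had the nearest and PUP3 the farthest. Among the 38 exact sites of other genes that are not shared with a subunit, 17 lay within this range of distances. The base after the motif was A at 18 of the 27 sites, T at 8 and C at 1. The base before it was C at 13, G at 7, A at 6 and T at 1.

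The remaining 6 subunit genes each had 1 match with a single mismatch, and they carried only 2 substitutions. Positions are counted from 1 at the 5′ end of the motif. PRE5 and PUP1 of the core and RPN8 of the lid had G1A. The ubiquitin receptor genes RPN10 and RPN13 and the lid gene SEM1 had A7G. The sites ended 92 to 163 bases before the start codon, inside the range of the exact sites. With 1 mismatch allowed, 454 of 6001 windows matched, or 7.57%, and all 33 subunit genes were among them. These near matches are shown in the same way.
PRE5 (chrXIII:901552-901580, plus strand): cctattatagAGTGGCAAAattaaaaatt
PUP1 (chrXV:631891-631919, minus strand): aacccggccgAGTGGCAAAataccaaaaa
RPN8 (chrXV:817085-817113, minus strand): gggatacctcAGTGGCAAAtcgttactca
RPN10 (chrVIII:498968-498996, minus strand): tgtaaattccGGTGGCGAAaacccgcctg
RPN13 (chrXII:965656-965684, minus strand): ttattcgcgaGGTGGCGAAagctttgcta
SEM1 (chrIV:1202007-1202035, plus strand): tagtgctatgGGTGGCGAAcgtggtgggc

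**Figure D1:**
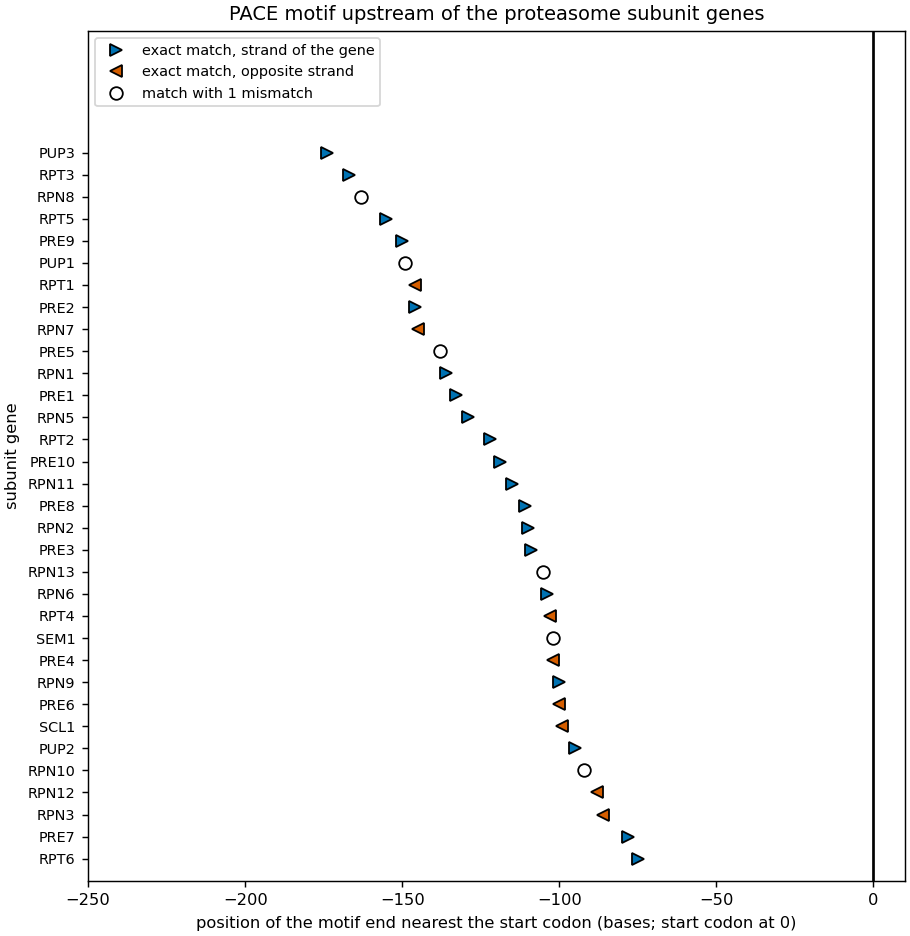
Position of the PACE motif upstream of 33 proteasome subunit genes, in bases from the start codon at 0 to the motif end nearest to it. Triangles are exact matches on the strand of the gene or the opposite strand and open circles are matches with 1 mismatch; all lie between 75 and 174 bases upstream.

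A match of letters is not evidence of binding, and no factor was measured here. Levels of the subunits, given as CPM per kilobase of coding sequence to allow for length, overlapped between genes with and without the exact motif. In replicate 2 the 27 genes with it ranged from 68.9 to 610 with a median of 196, and the 6 without it from 101 to 1057 with a median of 394. In replicate 1 the ranges were 95.2 to 641 with a median of 269, and 157 to 896 with a median of 350. The 3 genes with A7G stood among the 5 highest subunits by mean level per kilobase, which was noticed after their values were seen. SEM1 and RPN13 have the shortest coding sequences of the 33, at 270 and 471 nt. By mean CPM, not adjusted for length, RPN10 had 460, SEM1 264 and RPN13 235, against a median of 254 over the 33.

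Footprint levels of the subunits lay well above that of the typical CDS, and none was near the detection limit. The lowest count among them was 205 reads, for RPN12 in replicate 2, and the largest was 14658, for RPN2 in replicate 1. The 33 genes accounted for 0.817% of reads in CDSs in replicate 2, with a 95% Wilson interval from 0.806% to 0.827%. In replicate 1 the share was 1.02%, with an interval from 1.01% to 1.02%, and both libraries averaged 0.917% ± 0.142 (SD, n = 2). These intervals cover counting error only. Their median level was 206 CPM per kilobase in replicate 2 and 269 in replicate 1, against 12.7 and 22.0 for all 5987 CDSs with a length. All 33 exceeded the upper quartile of those CDSs in both libraries, and 17 in replicate 2 and 19 in replicate 1 exceeded the 90th percentile. The lowest placed members were RPN7 at percentile 79.0 in replicate 2 and RPN9 at 78.4 in replicate 1.

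**Figure D2:**
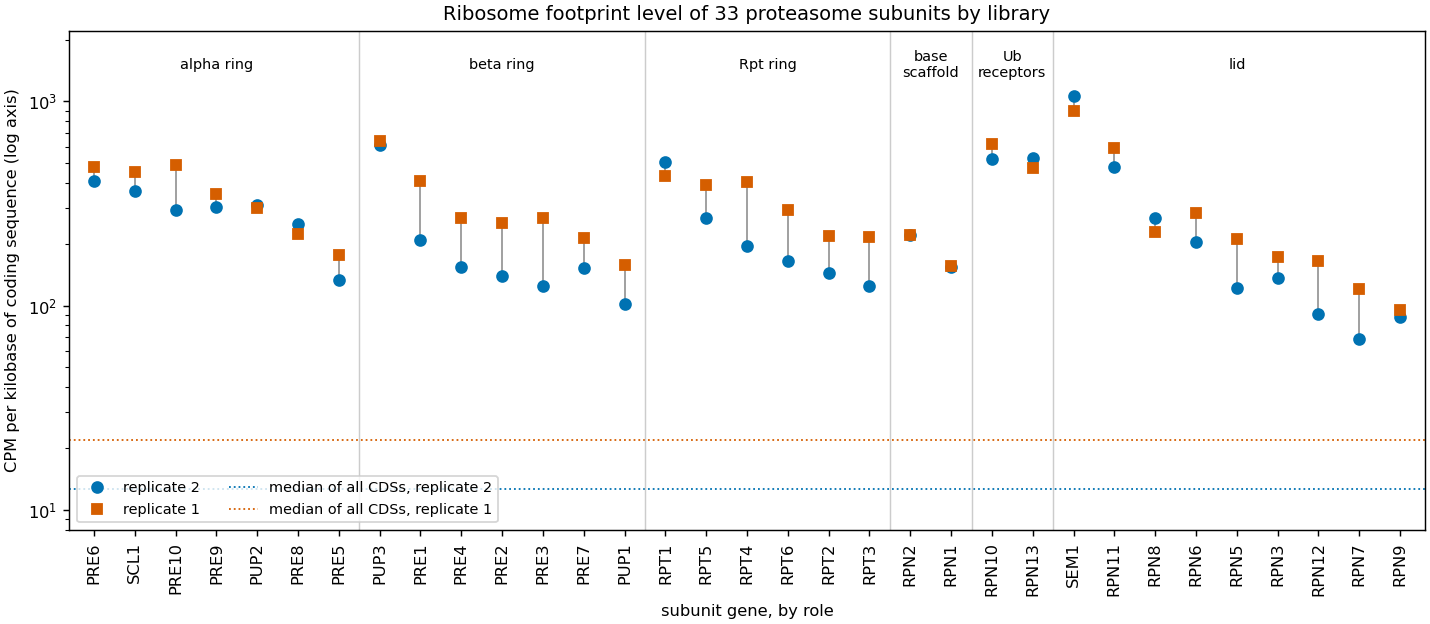
Footprint level of each subunit in CPM per kilobase of coding sequence on a log axis, with circles for replicate 2, squares for replicate 1 and dotted lines for the medians of all CDSs (12.7 and 22.0). SEM1 is highest in both libraries, and the lowest subunits, RPN7 and RPN9 of the lid, still lie above both medians.

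Although the subunits of a particle are incorporated in equal number, their footprint levels per kilobase differed several-fold. Within the core the highest level was 6.01-fold the lowest in replicate 2 and 4.07-fold in replicate 1, with coefficients of variation among the 14 genes of 55.7% and 42.0%. Within the 19S particle the span was 15.3-fold and 9.41-fold, with coefficients of variation of 86.3% and 63.1%. SEM1, which has the shortest coding sequence of the 33, widened that spread: without it the mean of both libraries was 59.8% in place of 74.7%. The median level of core genes was 1.17-fold that of 19S genes in replicate 2 (230 and 196 CPM per kilobase) and 1.24-fold in replicate 1 (284 and 230). With means in place of medians the ratio over both libraries was 0.965, below 1, so no order of the particles is read from it.

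The order of the subunits was largely shared by the libraries. Of the 528 pairs of subunits, 456, or 86.4%, stood in the same order in both, and Spearman's rho of the levels per kilobase was 0.891 over the 33 genes, which share these 2 libraries and their depth. Fine ranks were not resolved. Ordered by mean, 31 of the 32 neighbouring pairs had values that overlapped between the libraries. The exception was the gap between SEM1 and PUP3. Both genes of a pair share the libraries, so an overlap does not mean that their order changed. PUP3, RPN10 and RPN11 kept this order in both, whereas RPN11 and RPN13 changed theirs.

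In the alpha ring PRE6, SCL1 and PRE10 were the highest by mean. PRE6, the alpha-4 subunit (YOL038W, chromosome XV, 255337 to 256101), had the highest mean, with 408 CPM per kilobase in replicate 2 and 477 in replicate 1. SCL1, alpha-1, had 365 and 450. PRE10, alpha-7, had 294 and 489, so that it led the ring in replicate 1 and PRE6 in replicate 2. PRE5, alpha-6, was lowest with 133 and 177, below every other alpha gene in both libraries. The largest level of the ring was 3.07-fold its smallest in replicate 2 and 2.76-fold in replicate 1. PRE9, alpha-3, which is known as the only nonessential subunit of the core in yeast, had 302 and 351.

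In the beta ring PUP3 stood apart. PUP3, beta-3, a subunit without a catalytic site (YER094C, chromosome V, 348729 to 349346, minus strand), had 610 CPM per kilobase in replicate 2 and 641 in replicate 1. The next, PRE1, beta-4, had 208 and 407. PRE4, beta-7, had 155 and 269. Of the 3 catalytic genes, PRE2, beta-5, had 140 and 254, and PRE3, beta-1, had 125 and 268. PUP1, beta-2, was the lowest of the core with 101 and 157, and PRE7, beta-6, the third lowest of the core by mean, had 152 and 215. PRE3 is the only one of the 33 genes whose coding sequence is split by an intron, and its coding length of 648 nt was used.

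RPT1 led the ATPase genes in both libraries, and RPT4 differed most between them. RPT1 (YKL145W, chromosome XI, 174213 to 175616) had 506 CPM per kilobase in replicate 2 and 431 in replicate 1. RPT4 had 196 and 401, and RPT5 had 268 and 388. RPT3 was the lowest with 125 and 216, just under RPT2 with 144 and 218. The ring spanned 4.04-fold in replicate 2 and 1.99-fold in replicate 1.

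By CDS totals the large scaffold genes had nearly equal levels in both libraries. RPN2 had 222 CPM per kilobase in replicate 2 and 220 in replicate 1, and RPN1 had 155 and 156. Most CDSs were lower in replicate 2 on this scale, with a median log2 ratio to replicate 1 of -0.61 over those tested. RPN2 lay 0.62 and RPN1 0.60 above that median, so they were not even relative to other CDSs. Because their coding sequences are the longest of the 33, at 2838 and 2982 nt, they stood higher on the scale of reads: RPN2 had 631 and 625 CPM, second to RPT1 in replicate 2 and first in replicate 1. The ubiquitin receptor genes were both high. RPN10 had 520 and 620 CPM per kilobase, and RPN13 had 527 and 471.

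The lid held both the highest and the lowest levels. SEM1 (YDR363W-A, chromosome IV, 1202128 to 1202397), a small acidic subunit that is also part of other complexes, had 780 reads and 1057 CPM per kilobase in replicate 2, against 5671 reads and 896 CPM per kilobase in replicate 1. Its coding length is 270 nt. RPN11, the deubiquitinase (YFR004W, chromosome VI, 153393 to 154313), had 476 and 590. At the other end RPN9 had 87.9 and 95.2, RPN7 had 68.9 and 120, and RPN12 had 90.9 and 166. RPN8, which pairs with RPN11, had 268 and 230. RPN6, RPN5 and RPN3 had 206, 122 and 136 in replicate 2 and 283, 211 and 173 in replicate 1.

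Levels could be assigned to each gene without shared sequence. None of the 34218 windows of 28 bases in the 33 coding sequences occurred a further time in the genome, although the families are related: within them the proteins were 37.7% to 45.6% identical among the Rpt ATPases, 26.2% to 37.8% among alpha and at most 31.3% among beta subunits (median 25.5%). The genes lie on 13 chromosomes.

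Codon choice showed little relation to the level of the subunits. A codon adaptation index, which approaches 1 for genes with the codons of ribosomal proteins, had a median of 0.262 over the 33 genes. The median was 0.217 over all 5987 CDSs and 0.792 over the 138 reference genes that define the index. These were picked by the form of ribosomal protein gene names, which can admit other genes, and their lowest index was 0.165. The Spearman correlation of the index with the mean level per kilobase was -0.132 over the 33 subunits and 0.484 over the 5121 CDSs that had a length and averaged 10 reads or more. The subunits cover a narrow range, with indices from 0.167 to 0.317 against 0.0731 to 0.929 over all 5987 CDSs. All 33 also lay above the upper quartile of level, so the correlations are over unlike ranges. RPN10, among the highest of the subunits by level, had the lowest index, 0.167, at percentile 10.0 of all CDSs. RPN9, the lowest by mean level, and RPT1, the sixth highest, both had 0.317, the highest index of the 33. Coding length and level per kilobase had a rho of -0.364 over the 33 subunits, close to the -0.417 of those 5121 CDSs.

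The sequence before the start codon was of the common yeast form in most subunits. An A stood 3 bases before the ATG in 26 of 33 genes, or 78.8%, and in 60.9% of all 5987 CDSs. The start sites of the highest and the lowest subunits are shown with the start codon in capitals.
SEM1: atacgcaaaaatATGagt
PUP3: cataaaaaaaaaATGtcg
RPN10: agtaaccgcacaATGgta
RPN12: gaagccatcgtaATGccc
RPN7: aaacacggcaaaATGgta
RPN9: atatttcgcaagATGttt
SEM1, PUP3 and RPN10 at the top had A at this place, as did RPN7 and RPN9 at the bottom, whereas RPN12 had G.

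Other genes of the ubiquitin and proteasome pathway covered a wider range. The 44 genes of 8 lists had a median of 41.2 CPM per kilobase in replicate 2 and 52.7 in replicate 1. The dedicated assembly chaperones, which bind intermediates and leave the finished particle, had medians below those of the subunits. The 5 of the core had medians of 44.2 and 90.3 CPM per kilobase, led on the CPM scale by UMP1, which is degraded when the core matures, with 65.5 CPM in replicate 2 and 161 in replicate 1, and with IRC25 lowest at 18.7 and 28.1. Per kilobase UMP1 had 146 and 360, within the range of the subunits and in replicate 1 above their median. The 4 of the base had medians of 18.7 and 28.7, from HSM3 with 29.3 and 35.3 CPM to NAS2 with 8.41 and 21.2. Of the other caps and bound factors, the deubiquitinase UBP6 had the highest mean, with 188 and 122 CPM, and SPG5 the lowest, with 33.7 and 27.3. Their order differed between the libraries: BLM10, an alternative cap of the core, exceeded UBP6 in replicate 1 with 140.5 CPM. In replicate 2 FUB1 and HUL5 lay below SPG5, with 26.0 and 30.7 CPM. The medians of these 3 lists lay below those of the core and the 19S particle in both libraries.

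RPN4, the activator of these genes, had 79.0 CPM in replicate 2 and 122 in replicate 1, or 100.6 ± 30.5 CPM (SD, n = 2). Per kilobase it had 49.5 and 76.5, against 2.60 and 4.16 for UBR2, the ligase that marks it for degradation, and 8.64 and 16.5 for MUB1, the partner of UBR2. On the scale of reads, which is not adjusted for length, the genes with the highest and lowest mean of the other lists were as follows. Among ubiquitin genes, RPS31, which encodes ubiquitin fused to a ribosomal protein, had 6288 and 10305 CPM, and UBI4, a polyubiquitin gene that stress induces, had 46.5 and 61.2. RPL40A and RPL40B are near-identical copies, and the split of reads between them is uncertain. Shared sequence was checked for the proteasome subunits only, so the count of UBI4 may also depend on how reads that map to several places were handled. CDC48, the segregase ATPase, led the receptors and Cdc48 factors with 1166 and 1538 CPM, and DDI1 was lowest with 24.9 and 55.5. By mean the ubiquitin-conjugating enzymes ran from UBC1 with 255 and 370 CPM to UBC5 with 4.39 and 8.87, although CDC34 was highest in replicate 2 with 323 CPM. By mean the ligases ran from UFD4 with 81.6 and 138 CPM to HRD1 with 0.366 and 2.35, which is 1 and 55 reads, and UFD2 was highest in replicate 2 with 121 CPM. The exact PACE motif was present before 4 of the 44 genes, namely ECM29, UBI4, UBA1 and CDC48.

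**Figure D3:**
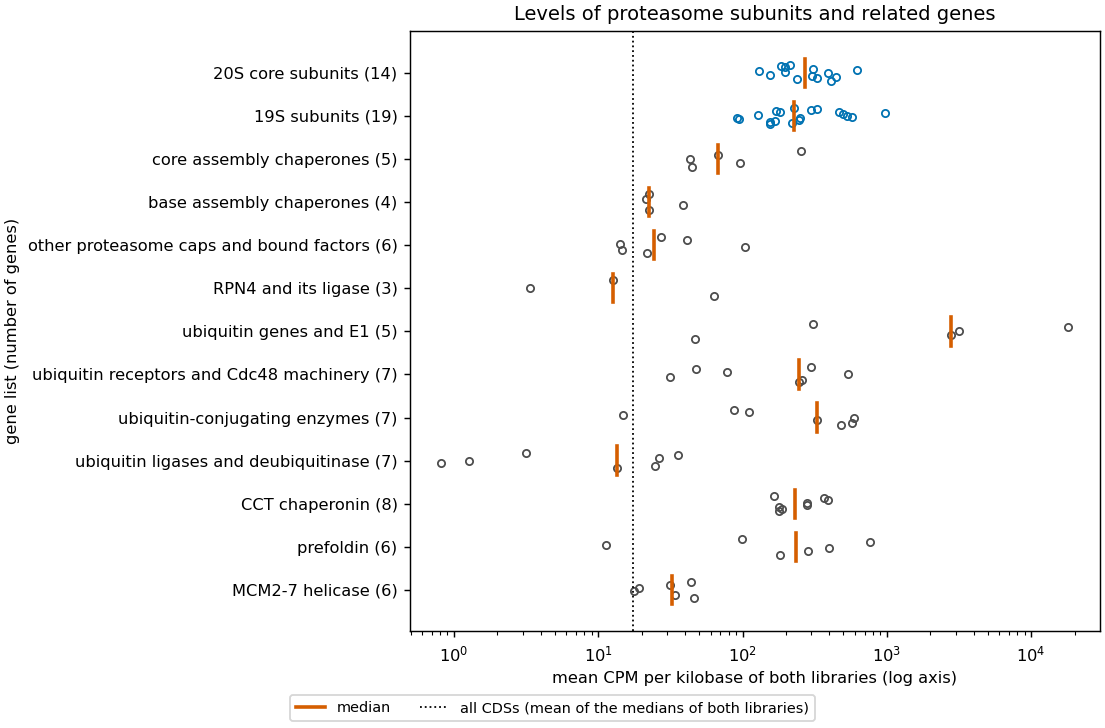
Mean level of both libraries in CPM per kilobase, on a log axis, for proteasome subunits, 8 lists of pathway genes and 3 other complexes; each circle is a gene, each orange bar a list median and the dotted line marks all CDSs. The subunits lie above most assembly chaperones and overlap the CCT chaperonin and prefoldin.

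Beside other complexes built from single gene products in equal number, the proteasome had medians near those of the CCT chaperonin and prefoldin. The 8 CCT genes had medians of 226 CPM per kilobase in replicate 2 and 249 in replicate 1, and the 6 prefoldin genes 194 and 273, whereas the 6 MCM2-7 helicase genes had 28.6 and 36.6. The highest CCT gene had 3.41-fold and 1.98-fold the level of the lowest. Both proteasome particles spanned more, but they hold 14 and 19 genes, and a span tends to widen with the number of genes. Groups nearer in size spanned 3.07-fold and 2.76-fold (alpha ring, 7 genes) and 6.01-fold and 4.07-fold (beta ring, 7). The Rpt ring (6) spanned 4.04-fold and 1.99-fold, and the lid (9) 15.3-fold and 9.41-fold. Prefoldin spanned 107-fold and 52.6-fold, through GIM5 with 8 and 193 reads. The differences between complexes have no test here, since genes are not replicates. An exact PACE motif was found before 1 of the 8 CCT genes, CCT6, and before none of the prefoldin or MCM2-7 genes. With 1 mismatch allowed, 5 of 8 CCT genes, 1 of 6 prefoldin genes and 1 of 6 MCM2-7 genes had a match, against 7.57% of all windows.

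The libraries differed in many subunits beyond counting error. The reads of each CDS were divided between the libraries and set against the division of the CDS totals by an exact binomial test (two-sided). With Benjamini-Hochberg adjustment over the 5131 CDSs that averaged 10 reads or more, the test separated 28 of the 33 subunits at 0.05, or 84.8%, against 71.2% of all CDSs tested. Of these, 5 were higher in replicate 2 (background 7.25%) and 23 lower (background 63.9%). This compares 2 libraries, not conditions. A test of counting error separates smaller differences where there are more reads. The subunits had median CPMs of 235 in replicate 2 and 273 in replicate 1, against 17.2 and 29.7 for all CDSs with a length. The called shares of subunits and background are therefore not at like depth, and the effect of depth on them was not tested. Most CDSs were lower in replicate 2 by this scale, with a median log2 ratio of -0.61 over all tested CDSs and of -0.41 over the subunits. With edgeR's TMM scaling, which removes most of that shift, 17 subunits were higher in replicate 2, against a background of 24.3%, and 10 lower, against 20.1% (either direction 27, background 44.4%). DESeq2's size factors gave 17 higher (background 25.7%) and 6 lower (18.4%), or 23 in all (44.1%). Scaling by the median ratio gave 17 higher (24.8%) and 9 lower (19.5%), or 26 in all (44.3%). Directions are therefore also given relative to the median ratio of all tested CDSs, above which 21 of the 33 lay. The folds, bounds and adjusted p of single genes below are set against equal CPM by CDS totals. They include the shift that most CDSs share and do not measure a departure from the median ratio.

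**Figure D4:**
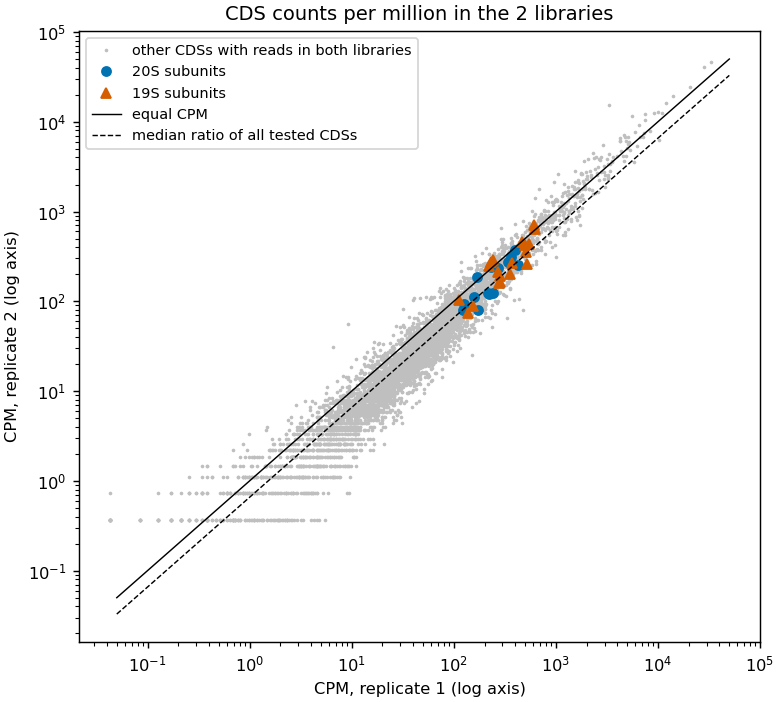
CPM of each CDS in replicate 2 against replicate 1, on log axes, with 20S subunits as circles, 19S subunits as triangles and other CDSs in grey. The subunits lie on both sides of the dashed line, which marks the median ratio of 0.657, and 5 called subunits lie above the solid line of equal CPM.

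The subunits at the top of the ratios kept or exceeded equality. SEM1 had 285 CPM in replicate 2 and 242 in replicate 1, a 1.18-fold ratio (exact 95% bounds 1.09 and 1.27, exact binomial test, adjusted p = 5.28e-05). RPT1 had 711 and 605 CPM, also 1.18-fold (1.12 to 1.23, adjusted p = 2.63e-10). RPN8 had 273 and 234 CPM, 1.17-fold (1.08 to 1.26, adjusted p = 0.000189). RPN13 and PRE8 were the others called higher, at 1.12-fold each. Relative to the median ratio these 5 lay 0.76 to 0.84 higher on the log2 scale.

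At the other end stood 2 beta genes and an ATPase gene. PRE3 had 80.8 CPM in replicate 2 and 174 in replicate 1, a 0.465-fold ratio (exact 95% bounds 0.405 and 0.533, exact binomial test, adjusted p = 3.12e-34). RPT4 had 258 and 527 CPM, 0.490-fold (0.453 to 0.528, adjusted p = 3.57e-92). PRE1 had 124 and 243 CPM, 0.512-fold (0.457 to 0.571, adjusted p = 9.70e-39). Relative to the median ratio PRE3 was lower by 0.49, RPT4 by 0.42 and PRE1 by 0.35 on the log2 scale. All 3 remained lower in replicate 2 with TMM scaling, with larger adjusted p than those given here.

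By role, the ratios of the rings differed in placement. Above the median ratio of all tested CDSs stood 6 of 7 genes of the alpha ring and 2 of 7 of the beta ring, namely PUP3 and PRE7. None of the 3 catalytic beta genes did, and neither did PRE1 and PRE4, which are not catalytic. The summed reads of the catalytic genes were 770 in replicate 2 and 12106 in replicate 1, a 0.545-fold CPM. Among them PUP1 lay only 0.021 below the median ratio on the log2 scale and was not called with TMM scaling. The Rpt ring had 3 of 6 above the median ratio, the lid 6 of 9, and the scaffold genes and the ubiquitin receptors all of theirs. With TMM scaling 5 of 7 alpha genes were higher in replicate 2 and 1 lower, and 1 of 7 beta genes was higher and 4 lower, against backgrounds of 24.3% higher and 20.1% lower. These counts describe the members and carry no test between the rings. The log2 ratio had a rho of 0.426 with the mean level per kilobase over the 33 subunits and of 0.253 over the 5121 CDSs, so higher genes tended to have higher ratios in both.

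**Figure D5:**
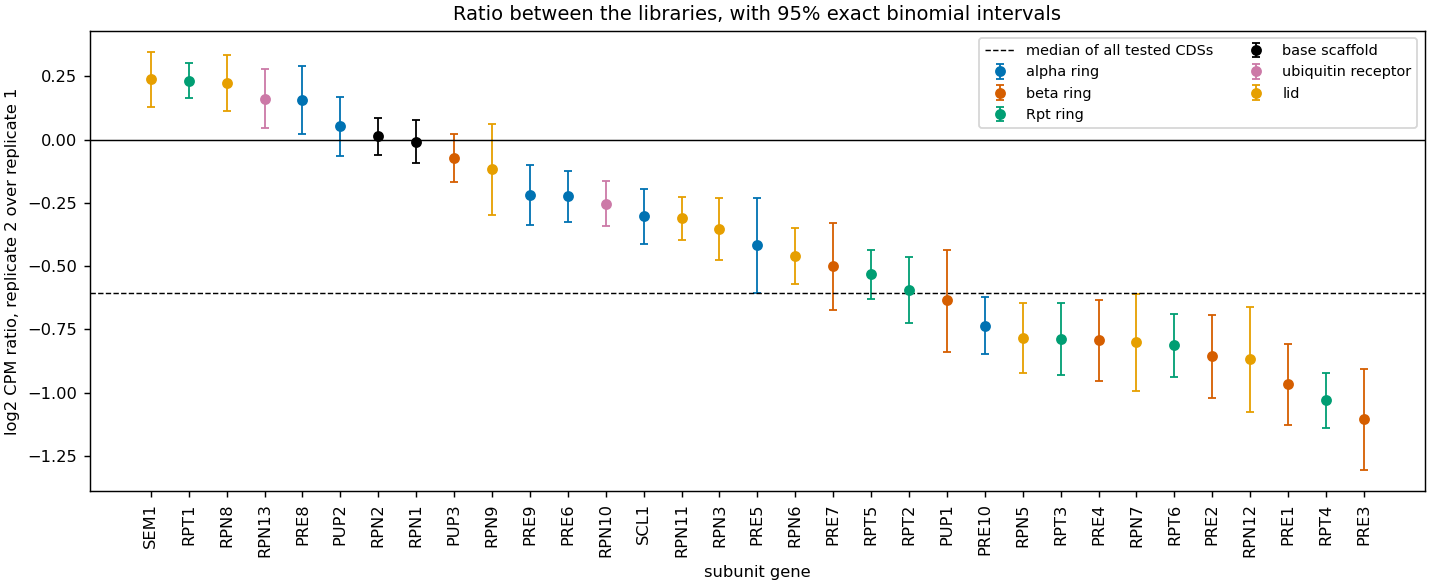
Log2 ratio of CPM in replicate 2 over replicate 1 for each subunit, coloured by role, with 95% exact binomial intervals. The solid line marks equal CPM and the dashed line the median of all tested CDSs at -0.61; 6 of 7 alpha genes lie above the dashed line, and 2 of 7 beta genes.

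Of the 44 pathway genes, all tested, 4 were higher in replicate 2 (background 7.25%) and 33 lower (63.9%) by CDS totals, and 15 were higher (24.3%) and 6 lower (20.1%) with TMM scaling. UBP6 was the highest in ratio, with 515 reads in replicate 2 and 2868 in replicate 1 and a log2 ratio of 0.62. UMP1, with 179 and 3772 reads, had -1.28, lower in replicate 2 with either scaling. RPN4 had a log2 ratio of -0.62, at the median ratio of all CDSs, and was not called with TMM scaling.

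Some reads were counted next to the subunit genes. The deposited tables also list intergenic open reading frames (IGORFs), and 202 of these on the strand of a subunit gene lay within 200 nt of its coding sequence or overlapped it. Replicate 2 had 60 reads in these and replicate 1 had 13, which is 21.9 and 0.555 per 1000000 CDS reads. Of these IGORFs, 8 and 9 had any read. The share of all IGORFs with any read is not given here, so these counts are not read as particular to the subunit genes. All 78989 IGORFs held 15116 reads in replicate 2 and 4057 in replicate 1. The contrast between the libraries near the subunits therefore runs the same way as that of the whole tables. As the IGORF totals run against the CDS totals, the values rest on the CDS and IGORF tables being paired as labelled. With the IGORF tables exchanged the values would be 4.76 and 2.56 per 1000000 CDS reads. The largest count was 27 reads in replicate 2, against 1 in replicate 1, in an IGORF that starts 197 nt after PRE6 on chromosome XV, from 256299 to 256529. Upstream of RPT1, 2 overlapping IGORFs on chromosome XI, from 174082 to 174183 and from 173979 to 174173, had 13 and 7 reads in replicate 2, and 2 and 1 in replicate 1. Reads of overlapping frames may have been counted in both. A count of 0 allowed up to 1.10 per 1000000 CDS reads in replicate 2 and 0.128 in replicate 1.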

How the data were processed

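Each library has 1 deposited file of unnormalized read counts per CDS and 1 per IGORF, per the file headers. The submitters' processing notes name cutadapt, Bowtie and SAMtools, with no version, and sacCer3. How reads were counted, against which annotation, and whether reads that map to several places or have other lengths were kept is not stated; these choices decide which reads reach a CDS.

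CPM was computed from the counts over the CDS total of the library, and divided by coding length in kilobases from the R64 annotation, which held 5987 of the 6666 CDS identifiers. All 78989 IGORFs end in a stop codon in R64, so coordinates were read on it. Log2 ratios used a pseudocount of 1 CPM. Folds are plain CPM ratios with 95% exact binomial intervals, and the limit of a count of 0 is 3 reads. No dispersion can be estimated with 1 library on each side, so the binomial test covers counting error only. It was also run on simulated counts with set folds and counting error only, so that run does not cover other variation between real libraries. Identities came from global alignments with BLOSUM62. TMM factors were computed with edgeR 4.0.16 and DESeq2's size factors with version 1.42.0, in R 4.3.3, and everything else in Python 3.11.15 with scipy 1.17.1, pandas 2.3.3 and Biopython 1.88.

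Members, pathway lists and tests were chosen with earlier results of these data known. All members are named, but PUP2 only within a range of names and PRE8 without its role. The rule gives values for the 3 highest and 3 lowest per kilobase of each particle, the 3 largest and smallest ratios, the highest and lowest gene of each list by mean CPM, and RPN4. Other genes, the codon index, the start sites, the shared windows, the flanks of the motif and the count of IGORFs were added or singled out after values were seen.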

Additional observations from a re-analysis of the deposited data

How the results depend on the processing

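Without the 10 highest CDSs in the total, the mean share of the subunits was 1.12% in place of 0.917% and their median 309.8 CPM in place of 254. The ratio of medians, core over 19S, was 1.20 over both libraries, 1.27 with coding length less 90 nt, 1.26 without SEM1 and 0.965 with means. The variation among 19S genes was 91.9% in place of 74.7% with the shorter length. The number of subunits higher in replicate 2, 5 by CDS totals, was 17 with TMM, with DESeq2's size factors and with the median ratio. The number lower, 23, was 10, 6 and 9 under these scalings. The median log2 ratio of the subunits, -0.41, turned to 0.18 with TMM and 0.21 with DESeq2, as both scalings move all CDSs up by construction. The number that differ, 28, was 23 with DESeq2. A minimum mean of 30 reads, or none, left the counts at 28, 5 and 23, and pseudocounts of 0.1 and 5 CPM gave median log2 ratios of -0.42 and -0.40.

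Leaving out a library gave shares of 0.817% and 1.02%, median CPMs of 235 and 273, ratios of 1.17 and 1.24, and variation of 42.0% to 55.7% (core) and 63.1% to 86.3% (19S); the comparison of the libraries then has no value. Exact PACE matches on the gene strand only were found for 19 subunits. IGORF reads near the subunits fell to 12.1 and 0.512 per 1000000 CDS reads within 100 nt in replicates 2 and 1, and to 11.7 and 0.427 within 50 nt. Exchanging the IGORF tables of the libraries made them 4.76 and 2.56. With 2 libraries of 1 group, depth limits ratios of low genes most in replicate 2, where the lowest subunit had 205 reads. No paired analysis was possible because both libraries belong to 1 group.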
